A study of Mus musculus with 40 samples.

Results

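The phospholipase A2 genes Pla2g3, Pla2g5, Pla2g2d, Pla2g12a, Pla2g4a, Pla2g4e, Pla2g6, Pla2g7, Pla2g15 and Pla2g16 were followed across mouse cerebrum and cerebellum. Wild-type mice were young (2 months) or aged (29 months) on a normal diet, or aged on a vitamin E deficient diet. Aged mice lacking the alpha-tocopherol transfer protein (Ttpa-/-) were on the deficient diet or on a vitamin E supplemented diet. The 10 genes were taken by their names in the scanner files, 10 of the 36362 gene names there, which gave 14 of the 55589 probes kept on the array. Each gene was represented by the probe with the highest mean signal, and each of these 10 probes was above background on all 40 arrays and saturated on none. Pla2g3 was set among its relatives because the study had picked it out on these same arrays, so its changes with age and in the knockout are given as values and are not independent evidence.

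Phospholipases A2 cut the fatty acid from the middle position of a membrane phospholipid, which leaves a lysophospholipid and a free fatty acid. Where that fatty acid is arachidonate, cyclooxygenases and lipoxygenases turn it into prostaglandins, thromboxanes and leukotrienes, and in brain the lysophospholipid is quickly reacylated. The family holds small secreted enzymes that need calcium, cytosolic enzymes, a calcium-independent enzyme, platelet-activating factor acetylhydrolases and a lysosomal enzyme. Vitamin E, alpha-tocopherol, is a lipid antioxidant that sits in the same membranes.

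The arrays were 1-colour Agilent arrays of total RNA from C57Bl/6 mice, in 10 groups of 4 arrays. For the cerebrum and for the cerebellum, wild-type mice (WT) on a normal diet of 36 mg alpha-tocopherol per kg were sampled at 2 months and at 29 months. The remaining 3 groups of each region were all 29 months old: WT mice on a vitamin E deficient diet, mice lacking the alpha-tocopherol transfer protein (Ttpa-/-) on the deficient diet, and Ttpa-/- mice on a diet supplemented to 600 mg alpha-tocopherol per kg. The transfer protein moves alpha-tocopherol out of the liver. The labels do not say whether tissue was pooled, give no sex, and do not say that arrays with the same number in the 2 regions came from the same mouse, so p-values measure the spread between these arrays. Of the sex markers, Xist was above background on all 40 arrays and the Y-linked Ddx3y, Eif2s3y, Kdm5d and Uty on none, the pattern of female tissue. The region sampled as cortex in the labels is called cerebrum here.

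All values are log2 signals relative to the array's own 75th percentile, a quantity that compares arrays for the same probe and not probes with each other. The 75th percentile lay between 365.1 and 925.1 signal units, and 51.4% to 61.4% of probes were above background. Pairs of arrays within a group correlated at 0.973 to 0.993. The 5 cortex markers summed to 4.89 to 5.57 on cerebrum arrays against -1.68 to -0.84 on cerebellum arrays, and the 6 cerebellum markers to 8.87 to 9.35 on cerebellum arrays against 1.99 to 2.70 on cerebrum arrays, so the regions matched their labels. In the cerebellum every WT group had the brighter of 2 Ttpa probes above background on 4 of 4 arrays, the Ttpa-/- deficient group on 0 of 4 and the Ttpa-/- supplemented group on 1 of 4. Its signal was at least 2.64-fold lower in Ttpa-/- deficient than in WT normal cerebellum (adjusted p = 4.16e-08 by limma), whereas in the cerebrum it was above background on at most 1 of 4 arrays of any group. The dimmer Ttpa probe rose above background on a single array of the 40, 1 of the 4 of Ttpa-/- deficient cerebellum (-2.67), and on no WT array, so it gives no check of the genotype. Arrays with the same scan date in the file headers were taken as 1 slide, and no slide number was read. This gave 5 such sets of 8 arrays, each with 2 whole groups, and slide here means such a set. Ageing in the cerebrum, the deficient diet in the cerebellum, supplementation of Ttpa-/- mice in the cerebellum and Ttpa-/- supplemented against WT deficient in the cerebrum were compared within a slide, whereas in every other comparison slide and group cannot be told apart. Fewer cells of a type and less RNA per cell cannot be told apart in these bulk samples.

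The probes behind the results are shown by their first 30 bases, 5′ to 3′, since each value is the signal of that oligonucleotide and of no other stretch of the gene. Positions are in mm9 as the array annotation gives them. The first Pla2g3 probe lies at chr11:3394109-3394168 on the plus strand and the second at chr11:3393127-3393186. The Pla2g5 probe lies at chr4:138355185-138355244 on the minus strand and the Pla2g2d probe at chr4:138337867-138337926 on the plus strand. The Pla2g4e probe lies at chr2:119992643-119992702 on the minus strand and the Pla2g7 probe at chr17:43749032-43749091 on the plus strand.
Pla2g3, first probe: aggagtaaatgaattaatcaacacacatac
Pla2g3, second probe: ctgcaagtaacccaggcaatctggagacgc
Pla2g5: cgggacacatccgatctatatttagagacc
Pla2g2d: tacacctgcaaggtcatttgctgctgtttt
Pla2g4e: tggttgttgagagattaatgacacccaacg
Pla2g7: ttacccaaataagcattttttaaatataca

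Few of the 10 genes passed the test, which asked for an adjusted p under 0.05 over all probes tested and a fold above 1.5, and Pla2g4e was the member that passed most often. With ageing of WT mice 0 of 10 passed in the cerebrum, where 2.09% of all tested probes did, and 0 of 10 in the cerebellum, where 5.03% did. At an unadjusted p under 0.05 these counts were 1 and 3. The share of all tested probes at that looser threshold was not counted. The background shares belong to the full test, so no count at an unadjusted p, here or below, is read as an excess. In Ttpa-/- deficient against WT normal mice of the same age 0 of 10 passed in the cerebrum (background 4.75%) and 0 of 10 in the cerebellum (background 4.46%), with 2 and 3 members at an unadjusted p under 0.05. The deficient diet in WT mice gave 0 of 10 in the cerebrum (background 0.223%; 2 at an unadjusted p under 0.05) and 1 of 10 in the cerebellum (background 1.28%), which was Pla2g4e.

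The same enzyme returned in the knockout comparisons of the cerebellum. Ttpa-/- against WT on the deficient diet gave 0 of 10 in the cerebrum (background 3.07%; 2 at an unadjusted p under 0.05) and 2 of 10 in the cerebellum (background 4.94%), Pla2g4e and Pla2g2d, both lower. Supplementation of Ttpa-/- mice gave 0 of 10 in the cerebrum (background 3.31%; 3 at an unadjusted p under 0.05) and 1 of 10 in the cerebellum (background 0.343%), Pla2g4e, which was higher. Ttpa-/- supplemented against WT normal gave 0 of 10 in the cerebrum (background 0.092%) and 1 of 10 in the cerebellum (background 4.91%), again Pla2g4e, and Ttpa-/- supplemented against WT deficient gave 0 of 10 in the cerebrum (background 0.0316%). In both of these cerebrum comparisons 0 members had an unadjusted p under 0.05. Within the regions the members' median absolute log2 change ran from 0.03, for supplementation in the cerebellum (0.11 over all tested probes), to 0.26, for Ttpa-/- against WT on the deficient diet in the cerebrum (0.18 over all tested probes). These comparisons share groups with each other, so their counts are not independent.

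**Figure D1:**
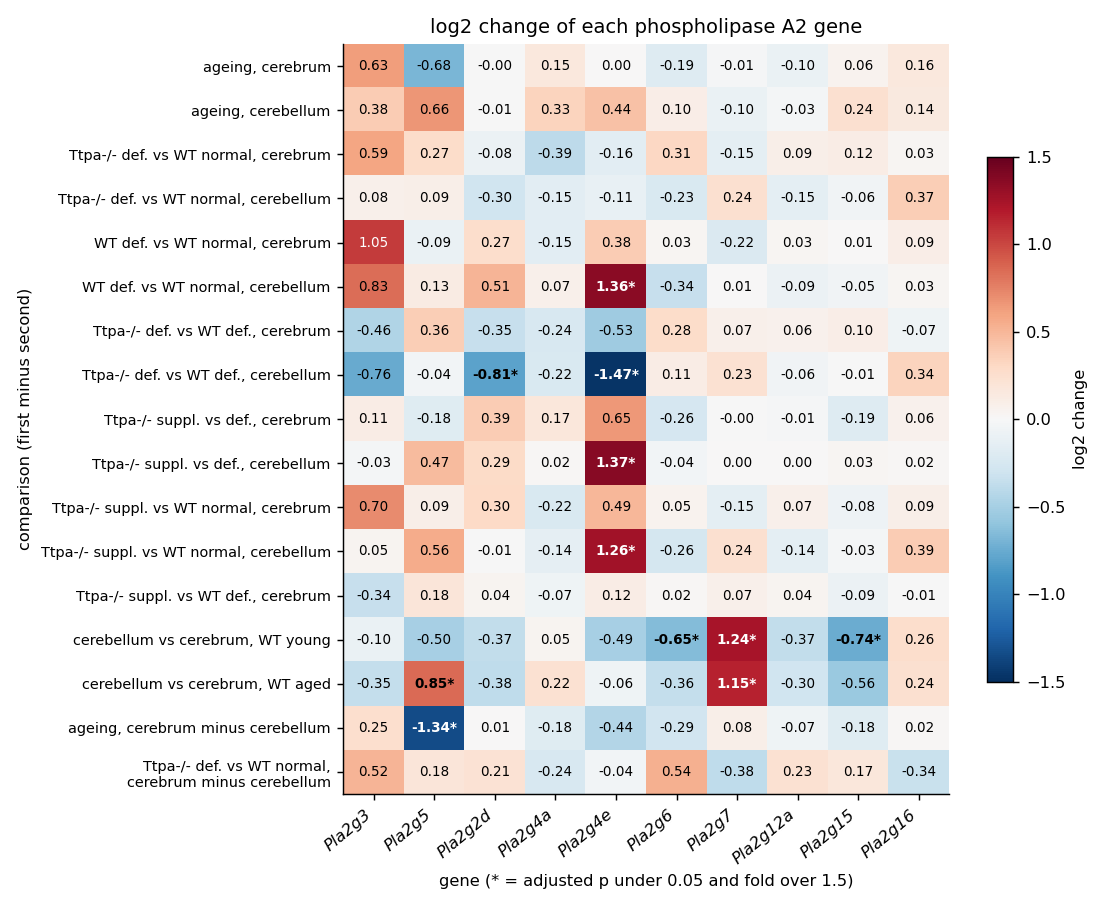
Log2 change of each of the 10 phospholipase A2 genes (horizontal axis) in the 17 comparisons within a region, between regions and of regional differences (vertical axis), with colour for the sign and size of the change and an asterisk on those that passed the test. Within the regions the asterisks are all in the cerebellum, on Pla2g4e at 1.36, -1.47, 1.37 and 1.26 and on Pla2g2d at -0.81.

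Pla2g3 encodes a secreted phospholipase A2 that resembles the bee venom enzyme. In the cerebrum its 4 arrays of young WT mice gave -1.77, -2.11, -1.96 and -2.25, those of aged WT mice on the normal diet -1.57, -1.61, -1.59 and -0.80. The aged arrays all lay above the young ones, and these 2 groups lay apart in either direction for 14% of all tested probes. The WT deficient arrays gave 0.47, 0.08, -0.07 and -1.86, the Ttpa-/- deficient arrays -0.96, -0.66, -0.79 and -0.79 and the Ttpa-/- supplemented arrays -0.78, -0.28, -0.61 and -1.08. WT deficient mice therefore held both the 3 highest arrays of the aged cerebrum and its lowest array. The cerebrum means were -2.02 ± 0.21 (SD, n = 4), -1.39 ± 0.39, -0.35 ± 1.03, -0.80 ± 0.12 and -0.69 ± 0.34 in this order of groups.

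In the cerebellum the Pla2g3 arrays of young WT mice gave -2.44, -1.35, -2.50 and -2.21 and those of aged WT mice on the normal diet -2.11, -1.85, -1.72 and -1.30. The WT deficient arrays gave 0.24, -0.46, -1.11 and -2.33, so that array 1 was the highest and array 4 the lowest in both regions. Same-numbered arrays of the regions may come from the same mice, which the labels do not say, so this is not read as a repeat. The Ttpa-/- deficient arrays gave -2.06, -0.93, -1.95 and -1.75 and the Ttpa-/- supplemented arrays -1.30, -1.40, -1.83 and -2.27. The groups of the cerebellum all overlapped, and 2 WT deficient arrays lay above every array of the other groups.

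**Figure D2:**
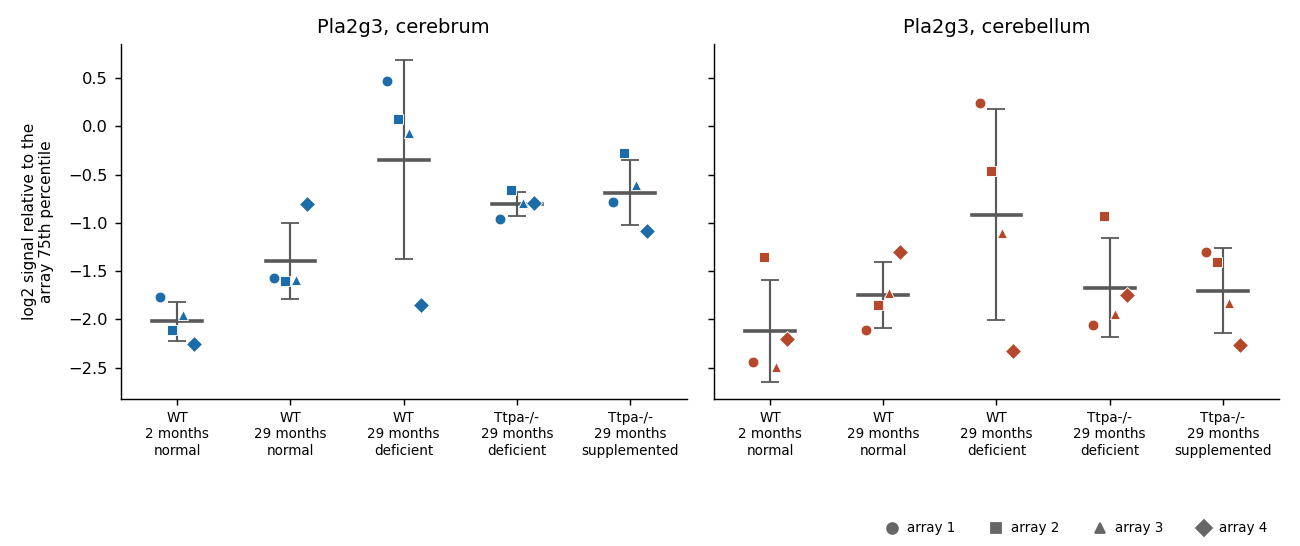
Log2 signal of Pla2g3 relative to the array's 75th percentile (vertical axis) on each array of the 5 groups of the cerebrum and the 5 of the cerebellum (horizontal axis), with a symbol for the array number, a line for the mean and bars for the SD (n = 4). The WT deficient arrays run from -1.86 to 0.47 in the cerebrum and from -2.33 to 0.24 in the cerebellum, the widest spread of any group in either region.

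Pla2g3 passed the test in none of the comparisons. With ageing it differed by 0.63 in the cerebrum (95% interval -0.19 to 1.45; adjusted p = 0.515 by limma; exact two-sided permutation p = 0.0286, the smallest that 4 against 4 arrays allow) and by 0.38 in the cerebellum (adjusted p = 0.679). Ttpa-/- deficient against WT normal gave 0.59 in the cerebrum (95% interval -0.23 to 1.41; adjusted p = 0.325) and 0.08 in the cerebellum (adjusted p = 0.932). The difference of this change between the regions was 0.52 with an adjusted p of 0.642, so no difference between the regions was shown. The deficient diet in WT mice gave the largest Pla2g3 values, 1.05 in the cerebrum (2.07-fold; 95% interval 0.22 to 1.87; adjusted p = 0.20; exact permutation p = 0.143) and 0.83 in the cerebellum (1.78-fold; adjusted p = 0.232; exact permutation p = 0.229). Both turned on single arrays of the WT deficient group. Without array 4 the change was 1.55 in the cerebrum (adjusted p = 0.0168 by limma) and 1.30 in the cerebellum (adjusted p = 0.0354), and Pla2g3 passed. Without array 1 of the same group it was 0.78 in the cerebrum and 0.45 in the cerebellum. Without array 4 of the WT deficient cerebellum Pla2g3 also passed in Ttpa-/- against WT on the deficient diet, at -1.23 (adjusted p = 0.0277) in place of -0.76 (adjusted p = 0.219), and without array 1 that value was -0.37. Between the regions Pla2g3 differed by -0.10 in young WT mice (adjusted p = 0.839) and by -0.35 in aged WT mice (adjusted p = 0.472). Markers of the striatum, a region beneath the cortex, also changed in the cerebrum. They ran with Pla2g3 for the deficient diet and the knockout, and against it with ageing. With the deficient diet none of the 6 passed, but their median change was 0.98 and their summed log2 level lay at 4.82 to 5.88 against 4.18 to 4.41 on the normal diet. In Ttpa-/- deficient against WT normal mice 2 of 6 rose (4.74 to 5.02 in the knockout), and with ageing 2 of 6 fell (4.88 to 5.46 in young mice). In these cerebrum comparisons the 3 blood markers had medians of 1.11 (diet), 1.85 (Ttpa-/- deficient) and 2.59 (ageing). For the 9 choroid plexus markers the medians were 0.43, 0.79 and -0.62, and no marker of either list passed. The part of all these markers in the Pla2g3 values was not tested. With the deficient diet in the cerebrum no marker of any list passed.

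The second Pla2g3 probe was dimmer and was above background on 13 of 20 cerebrum arrays and 7 of 20 cerebellum arrays. In WT normal cerebrum it was above background on 1 of 4 young and 1 of 4 aged arrays. Its means there were -4.23 and -4.14 with overlapping groups, so it did not show the ageing change of the first probe and gives no check of it. It gave -2.32, -2.89, -3.32 and -4.39 in WT deficient cerebrum and -2.56, -3.33, -3.87 and -5.21 in WT deficient cerebellum, again with array 4 lowest. Across arrays of the same groups it followed the first probe with r = 0.86 in the cerebrum and r = 0.76 in the cerebellum (20 arrays each, a description over grouped arrays). Over the 20 cerebrum arrays the probes most like the first Pla2g3 probe, among 20255 compared, were Rnf34 (r = 0.959, rho = 0.949, r = 0.939 without the 2 arrays farthest from the Pla2g3 median), Wdr37 (0.950, 0.971 and 0.947), Mc4r (0.933, 0.919 and 0.916), Scn10a (0.930, 0.905 and 0.900) and Apod (0.926, 0.922 and 0.888). In the cerebellum, among 20656 probes, they were Map3k6 (0.874, 0.765 and 0.743), Ankrd13a (0.859, 0.803 and 0.785), Ppargc1a (0.840, 0.768 and 0.680), Lcn2 (0.840, 0.699 and 0.605) and Mrpl41 (0.840, 0.675 and 0.698). No probe was among the first 5 in both regions. Within the family, Pla2g7 was the member that ran most strongly against Pla2g3 in the cerebrum, with r = -0.777 over the same 20 arrays. Over the 20 cerebellum arrays the same pair gave r = -0.069, and both values describe arrays of differing groups.

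Pla2g5, a secreted enzyme known from heart and macrophages, was the member whose change with age differed between the regions. In the cerebrum the young WT arrays gave -0.12, -0.28, -0.15 and -1.08 and the aged WT arrays -0.87, -1.25, -0.87 and -1.37, with array 4 of the young group inside the aged range. In the cerebellum the young arrays gave -0.46, -1.44, -0.92 and -0.81 and the aged arrays -0.22, -0.40, -0.24 and -0.11, all above the young ones. The change with age was -0.68 in the cerebrum (SE 0.23; 1.60-fold lower; adjusted p = 0.0954 by limma) and 0.66 in the cerebellum (1.58-fold; adjusted p = 0.0578; exact permutation p = 0.0286), so neither passed by itself.

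The difference of the Pla2g5 ageing change, cerebrum minus cerebellum, was -1.34 (SE 0.32; 95% interval -2.0 to -0.68; adjusted p = 0.0219 by limma) and passed. It was the only member of 10 to do so, where 1.46% of all tested probes passed. The young regions did not differ by the test, at -0.50 for cerebellum minus cerebrum (adjusted p = 0.0595), and in aged WT mice Pla2g5 was 0.85 higher in the cerebellum (1.80-fold; adjusted p = 0.00215), with no overlap of the groups. The difference in ageing did not pass without array 1 of the young cerebrum (-1.25, adjusted p = 0.0555), array 4 of the aged cerebrum (-1.25, adjusted p = 0.0524) or array 2 of the young cerebellum (-1.16, adjusted p = 0.0739), nor with median scaling (-1.32, adjusted p = 0.0861) or with the compared groups alone in the fit (adjusted p = 0.0628). Without array 4 of the young cerebrum the fall in the cerebrum passed (-0.90, adjusted p = 0.0193), and without array 1 of the young cerebellum the rise in the cerebellum passed (0.81, adjusted p = 0.0326).

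**Figure D3:**
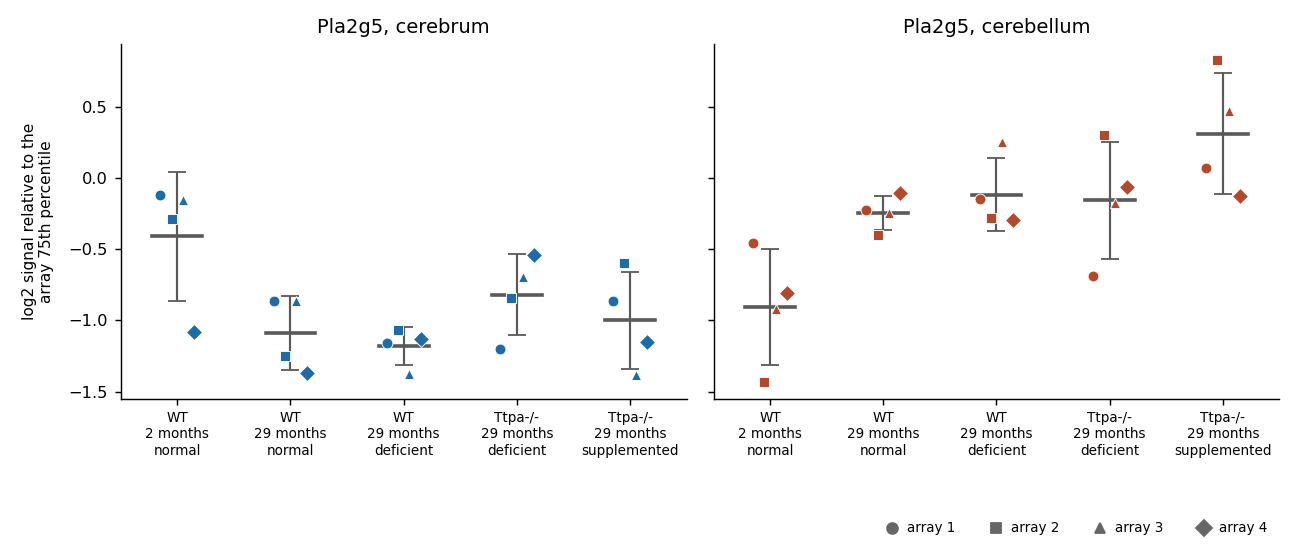
Log2 signal of Pla2g5 relative to the array's 75th percentile (vertical axis) on each array of the 5 groups in each region (horizontal axis), with a symbol for the array number, a line for the mean and bars for the SD (n = 4). The young mean of -0.41 is the highest of the cerebrum and the young mean of -0.90 the lowest of the cerebellum.

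Pla2g5 passed in no comparison of diet or genotype. The means were -1.18 ± 0.13 in WT deficient, -0.82 ± 0.28 in Ttpa-/- deficient and -1.0 ± 0.34 in Ttpa-/- supplemented cerebrum, against -0.11 ± 0.26, -0.15 ± 0.41 and 0.31 ± 0.42 in the cerebellum (SD, n = 4 each). The second Pla2g5 probe was above background on 4 of 20 cerebrum arrays and 9 of 20 cerebellum arrays and was not tested for ageing. Of the WT normal groups it was above background only on 2 of 4 aged cerebellum arrays, at least 1.29-fold above the young cerebellum. Markers of other cells moved with age as well. In the cerebellum 6 of 8 microglia markers rose with age (summed log2 level 6.40 to 6.51 in young, 6.63 to 6.83 in aged). There 3 of 8 tested choroid plexus markers fell (3.11 to 7.97 in young, 2.47 to 2.70 in aged), and 2 of 3 blood markers rose (1.61 to 2.90 in young, 3.57 to 6.40 in aged). The cerebellum also had 2 of 4 tested striatum markers (4.25 to 4.58 in young, 4.23 to 4.78 in aged) and 1 of 7 astrocyte markers that rose. In the cerebrum 2 of 6 striatum markers fell (4.88 to 5.46 in young, 4.18 to 4.41 in aged), while 2 of 8 microglia markers and 1 of 7 astrocyte markers rose. In the difference of the ageing change between the regions, cerebrum minus cerebellum, 6 of 8 microglia markers (median -0.88) and 3 of 6 striatum markers (median -1.61) passed with the same sign as Pla2g5, and 1 of 6 cerebellum markers and 1 of 9 choroid plexus markers with the opposite sign. Their part in the Pla2g5 values was not tested.

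Pla2g2d, a secreted enzyme known from dendritic cells of lymphoid tissue, was dim in both regions, with group means from -3.78 to -2.80. In WT deficient cerebellum its arrays gave -3.14, -3.27, -1.89 and -3.59 and in Ttpa-/- deficient cerebellum -3.61, -3.44, -4.03 and -4.04. Array 3 of the WT group stood well above the rest and the groups overlapped. Pla2g2d was lower in Ttpa-/- mice by this comparison, at -0.81 (1.75-fold lower; adjusted p = 0.0166 by limma; exact permutation p = 0.0571). It did not pass without that array 3 (-0.44, adjusted p = 0.102), nor without array 3 (-0.72, adjusted p = 0.0519) or array 4 (-0.72, adjusted p = 0.0543) of the Ttpa-/- group, and it passed in 7 of 14 alternative settings. With the mean of all probes of the gene the change was -0.12 (adjusted p = 0.767 by limma). The second Pla2g2d probe was above background on 1 of 40 arrays and on none of these groups. Its means ran the other way, at -4.99 in Ttpa-/- deficient and -5.56 in WT deficient cerebellum, so it gives no check of the change. Pla2g12a, a secreted enzyme of low catalytic activity found in many tissues, ranged from 0.47 to 0.82 over the 20 cerebrum arrays and from -0.03 to 0.41 over the 20 cerebellum arrays. It was lower in the cerebellum by 0.37 in young mice (adjusted p = 0.000123) and by 0.30 in aged mice (adjusted p = 0.00135), with folds under 1.5.

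Pla2g4e, the epsilon form of the cytosolic enzymes, which as an N-acyltransferase makes precursors of the N-acylethanolamines, was raised in the cerebellum of WT deficient and of Ttpa-/- supplemented mice and not in that of Ttpa-/- deficient mice. The WT deficient cerebellum arrays gave 0.28, -0.30, -0.96 and -0.91 and the Ttpa-/- supplemented arrays -0.83, -0.32, -0.21 and -0.92. The aged WT normal arrays gave -2.10, -1.68, -2.04 and -1.49, the Ttpa-/- deficient arrays -2.36, -1.24, -1.78 and -2.39 and the young WT arrays -2.59, -2.02, -2.11 and -2.35. All 8 arrays of the first pair of groups lay above all 12 arrays of the other groups.

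The deficient diet raised Pla2g4e in WT cerebellum by 1.36 (SE 0.26; 95% interval 0.83 to 1.88; 2.56-fold; adjusted p = 0.00547 by limma). On the deficient diet it was lower in Ttpa-/- than in WT cerebellum by 1.47 (2.77-fold lower; adjusted p = 0.00028), a value of the opposite sign that shares the WT deficient arrays with the first. Supplementation of Ttpa-/- mice raised it by 1.37 (2.59-fold; adjusted p = 0.00476), and supplemented Ttpa-/- mice were 1.26 above WT normal mice (2.39-fold; adjusted p = 0.00145). The exact permutation p was 0.0286 in each of the 4. The diet and the supplementation comparisons each lay within a slide, whereas in the other 2 slide and group cannot be told apart. The diet comparison rested on array 1 of the WT deficient group, without which it was 1.11 (adjusted p = 0.0611). With only the 2 compared groups in the fit the adjusted p was 0.14 for the diet, 0.0858 for Ttpa-/- against WT on the deficient diet and 0.449 for supplementation, so these 3 no longer passed with the spread of the compared groups alone.

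**Figure D4:**
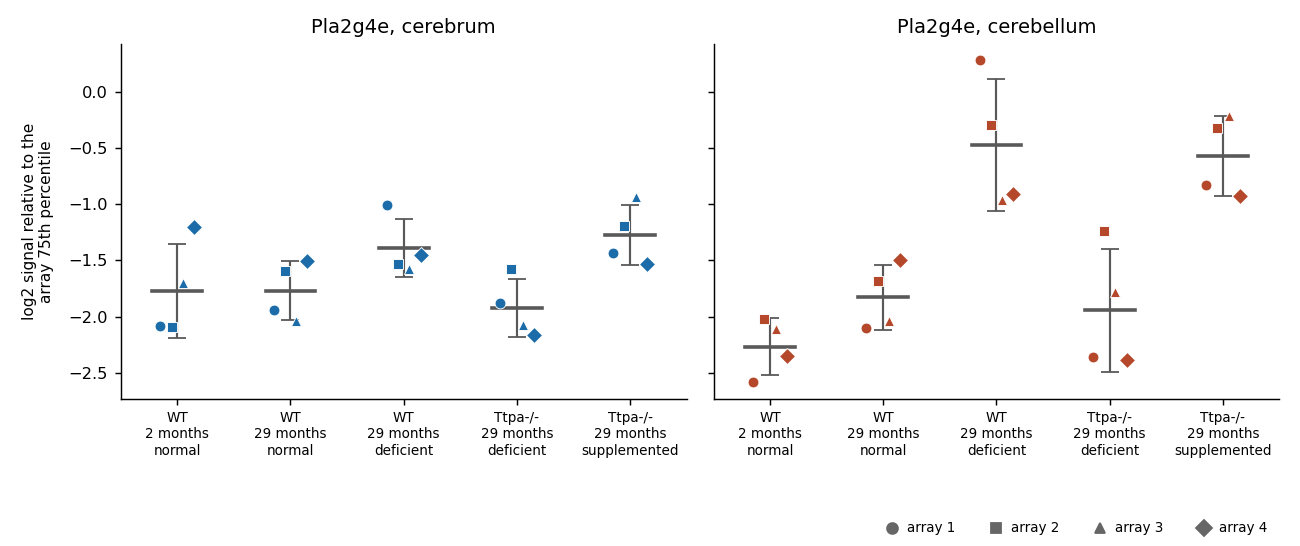
Log2 signal of Pla2g4e relative to the array's 75th percentile (vertical axis) on each array of the 5 groups in each region (horizontal axis), with a symbol for the array number, a line for the mean and bars for the SD (n = 4). In the cerebellum the WT deficient mean of -0.47 and the Ttpa-/- supplemented mean of -0.57 stand above the means of -2.27, -1.83 and -1.94 of the other groups.

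In the cerebrum the Pla2g4e values ran the same way but smaller. The WT deficient arrays gave -1.01, -1.53, -1.57 and -1.45, the Ttpa-/- deficient arrays -1.88, -1.58, -2.08 and -2.16 and the Ttpa-/- supplemented arrays -1.43, -1.20, -0.94 and -1.54. The Ttpa-/- deficient arrays all lay below the WT deficient arrays, by a narrow gap (-1.578 against -1.575), and below the supplemented arrays. The compared groups lay apart in either direction for 17.2% and 19% of all tested probes in these 2 comparisons. Aged WT normal mice gave -1.94, -1.59, -2.04 and -1.5 and young WT mice -2.08, -2.09, -1.70 and -1.21. The changes were 0.38 with the deficient diet, -0.53 in Ttpa-/- against WT on that diet (adjusted p = 0.163) and 0.65 with supplementation (adjusted p = 0.0867), none of which passed. The difference between the regions, cerebrum minus cerebellum, was tested after the values were seen. It was -0.98 for the diet (95% interval -1.72 to -0.24; adjusted p = 0.244), 0.94 for Ttpa-/- on the deficient diet (adjusted p = 0.16), -0.72 for supplementation (adjusted p = 0.317) and -0.76 for Ttpa-/- supplemented against WT normal (adjusted p = 0.33). A difference between cerebrum and cerebellum was therefore not shown. For the 10 members the number that passed was 0 in each of these 4 tests, where 0.0126%, 0.795%, 0.0441% and 0.957% of all tested probes passed, and 2, 2, 0 and 3 members had an unadjusted p under 0.05. With the deficient diet in the cerebellum 1 of 6 oligodendrocyte markers fell (summed log2 level 7.72 to 7.99 on the normal and 6.93 to 7.76 on the deficient diet), no other list of cell markers had a member that passed, and the part of these cells in the Pla2g4e value was not tested. With supplementation in the cerebellum no marker of any list passed. In Ttpa-/- against WT on the deficient diet in the cerebellum 1 of 8 microglia markers rose, and in Ttpa-/- supplemented against WT normal cerebellum 1 of 5 tested markers of meninges fell.

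Pla2g4a, the calcium-dependent cytosolic enzyme that prefers arachidonate, passed no test. It gave -1.80, -1.84, -1.76 and -1.24 in Ttpa-/- deficient cerebrum against -1.12, -1.40, -1.22 and -1.33 in WT normal cerebrum, a change of -0.39 (adjusted p = 0.0800 by limma) with array 4 of the knockout inside the WT range. Its group means in the cerebellum lay between -1.38 and -0.97. Pla2g6, the calcium-independent enzyme altered in infantile neuroaxonal dystrophy, gave 0.65, 0.55, 0.54 and 0.23 in Ttpa-/- deficient cerebrum against 0.11, 0.31, 0.07 and 0.24 in WT normal mice. In the cerebellum the same comparison set -0.27, -0.30, -0.56 and -0.51 against -0.23, -0.15, -0.16 and -0.18. The Ttpa-/- values were mostly above WT in the cerebrum and all below WT in the cerebellum. The change was 0.31 in the cerebrum (adjusted p = 0.0472) and -0.23 in the cerebellum (adjusted p = 0.174), and their difference was 0.54 (SE 0.16; 95% interval 0.22 to 0.85; adjusted p = 0.0327), a fold of 1.45. The adjusted p was under 0.05 for that difference but the fold was under 1.5, so 0 of 10 members passed for the Ttpa-/- deficient change between the regions (background 3.38%; 4 at an unadjusted p under 0.05). Without array 4 of the Ttpa-/- deficient cerebrum it was 0.62 (adjusted p = 0.00835) and Pla2g6 passed. Of the cell markers, 1 of 6 of the striatum passed in this regional difference with the same sign and 1 of 4 of endothelium with the opposite sign, and their part was not tested.

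Between the regions of young WT mice 3 of 10 members passed (background 38.4%), and in aged WT mice 2 of 10 (background 33.6%). Pla2g7, the platelet-activating factor acetylhydrolase that circulates on lipoproteins, was higher in the cerebellum at both ages. Its young arrays gave 5.29, 5.38, 5.31 and 5.19 in the cerebellum against 4.15, 3.96, 3.88 and 4.22 in the cerebrum. The aged arrays gave 5.22, 5.12, 5.11 and 5.33 against 4.11, 4.08, 4.10 and 3.87, and the regions did not overlap at either age. The change was 1.24 in young mice (2.36-fold; adjusted p = 2.14e-12 by limma) and 1.15 in aged mice (2.23-fold; adjusted p = 1.49e-11), and the second Pla2g7 probe gave 1.04 and 1.06. The regions of young mice lay on different slides, as did those of aged mice.

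Pla2g15, the lysosomal enzyme, was lower in the cerebellum. Its young arrays gave 0.15, 0.20, 0.41 and 0.22 there against 0.94, 1.01, 1.01 and 0.99 in the cerebrum, a change of -0.74 (adjusted p = 1.23e-09 by limma). In aged mice the change was -0.56 (adjusted p = 4.53e-07), a fold of 0.679 that did not pass the fold threshold, and it passed without array 4 of the aged cerebellum (-0.60, adjusted p = 5.16e-07). The cerebellum arrays of aged WT mice gave 0.32, 0.52, 0.48 and 0.62, with a change with age of 0.24 (adjusted p = 0.0477) at a fold under 1.5. Pla2g6 was lower in the cerebellum too, by 0.65 in young mice (adjusted p = 5.77e-06), which passed, and by 0.36 in aged mice (adjusted p = 0.00571), which was under the fold threshold. For Pla2g5, which passed in aged mice, the difference in young mice passed without array 4 of the young cerebrum (-0.72, adjusted p = 0.00747) or array 1 of the young cerebellum (-0.65, adjusted p = 0.0217).

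**Figure D5:**
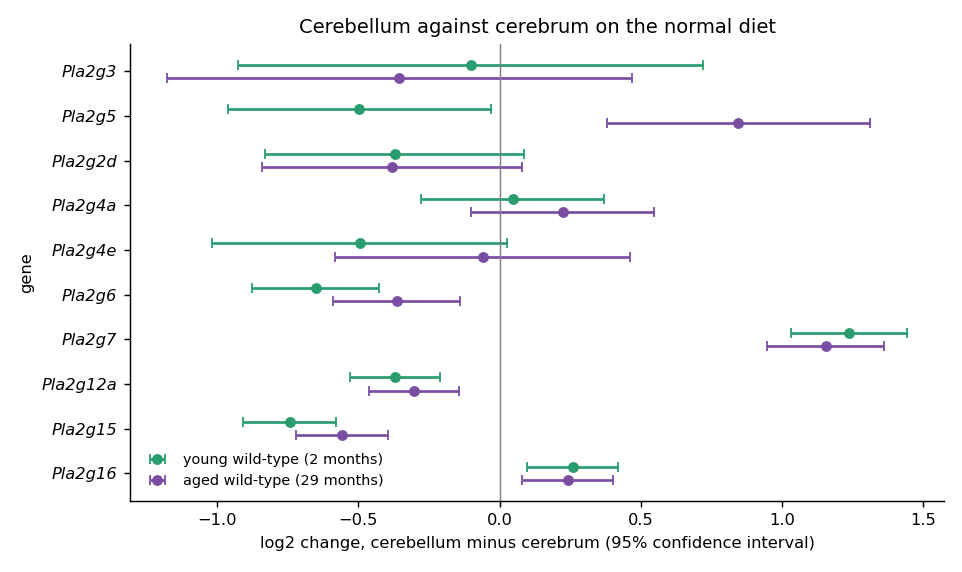
Log2 change of the 10 genes between cerebellum and cerebrum (horizontal axis, cerebellum minus cerebrum, points with 95% intervals) in young and in aged WT mice on the normal diet, with the genes on the vertical axis. Pla2g7 lies at 1.24 and 1.15, and Pla2g5 is at -0.50 in young and 0.85 in aged mice.

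Pla2g16, a phospholipase of adipose tissue that is now named Plaat3, was slightly higher in the knockout cerebellum. In the cerebellum the Ttpa-/- deficient arrays gave 3.50, 3.67, 3.69 and 3.80 and the Ttpa-/- supplemented arrays 3.61, 3.88, 3.54 and 3.71. The WT arrays gave 3.27, 3.21, 3.31 and 3.41 on the normal diet and 3.30, 3.43, 3.37 and 3.22 on the deficient diet at 29 months. All 8 knockout arrays lay above all 8 arrays of the aged WT groups. The change was 0.37 for Ttpa-/- deficient against WT normal (1.29-fold; adjusted p = 0.00262 by limma), 0.34 on the deficient diet (1.26-fold; adjusted p = 0.00535) and 0.39 for supplemented Ttpa-/- against WT normal (1.31-fold; adjusted p = 0.00162), all under the fold threshold. Over the cerebrum its 20 arrays lay between 2.85 and 3.35. These 3 comparisons share groups, and in each of them the compared groups lay on different slides, so slide and genotype cannot be told apart. In Ttpa-/- deficient against WT normal cerebellum 3 of 8 microglia, 2 of 6 oligodendrocyte and 1 of 7 astrocyte markers fell, and their part in the Pla2g16 value was not tested. Its probe shares a run of 20 bases with 2 other probes of the array.

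Genes around the phospholipases were counted in 4 lists. Of the arachidonate oxygenases and synthases, 17 were tested for ageing, of which 1 rose in the cerebrum (2.09% of all tested probes passed) and 6 rose in the cerebellum (5.03%), and the median log2 change of the list in the cerebellum was 0.35 against -0.01 over all tested probes. The largest of the 6 were Ptgs2, the inducible cyclooxygenase, at 1.61 (adjusted p = 0.00195 by limma; at least 1.93-fold, with 0 of 4 young arrays above background), Hpgds, a prostaglandin D synthase of microglia and mast cells, at 1.53, the thromboxane synthase Tbxas1 at 1.40 and the 5-lipoxygenase Alox5 at 0.81. The prostacyclin synthase Ptgis rose in the aged cerebrum by 0.84 (adjusted p = 0.017). The part of the cell markers given beside Pla2g5 in this list was not tested. The ageing change of Tbxas1 differed between the regions by -1.04, cerebrum minus cerebellum, the 1 gene of 18 in this list that passed (1.46% of all tested probes).

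The Ttpa-/- comparisons moved some of the same oxygenases and synthases. In Ttpa-/- deficient against WT normal mice, 2 of 17 fell in the cerebrum (background 4.75%), Ptgis by 0.79 and Tbxas1 by 0.71, and 2 of 17 fell in the cerebellum (background 4.46%), Hpgds by 1.40 and Tbxas1 by 0.71. In the cerebellum 3 of 8 microglia markers (summed log2 level 6.63 to 6.83 in WT, 6.36 to 6.72 in Ttpa-/-), 2 of 6 oligodendrocyte markers (7.72 to 7.99 in WT, 7.18 to 7.60 in Ttpa-/-) and 1 of 7 astrocyte markers also fell, and in the cerebrum 2 of 6 striatum markers rose. Their part was not tested. With the deficient diet in the cerebellum 2 of 17 passed (background 1.28%): Ptgs2 rose by 1.21 (adjusted p = 0.0446 by limma), with overlapping groups, and Hpgd, which breaks prostaglandins down, fell by 0.70. On that diet Ttpa-/- mice had lower cerebellar Ptgs2 (-1.57), Hpgds (-0.89) and Ptgis (-0.81) than WT mice and higher Ltc4s (0.68), the leukotriene C4 synthase, 4 of 16 tested (background 4.94%). In supplemented Ttpa-/- against WT normal cerebellum Hpgds fell by 0.75 and Aloxe3 rose by 0.66, 2 of 17 tested (background 4.91%). Between the regions 7 of 18 were lower and 0 higher in the young cerebellum, near the 38.4% of all tested probes that passed, with Ptgs2 at least 14.6-fold and Alox12e at least 3.08-fold lower, Hpgds at -1.75 and Tbxas1 at -1.35. In the aged cerebellum 5 of 18 were lower and 1 higher, near the 33.6% of all tested probes, with Ptgs2 at -3.35, Alox12e at least 4.07-fold lower, Ptgs1 at -1.06 and Alox12 at least 1.38-fold higher.

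Of the genes that reacylate or hydrolyse lysophospholipids, 18 were tested in each comparison named here. Within the regions Mboat1 and Pnpla7 rose with age in the cerebrum (0.87 and 0.59; background 2.09%), Acsl3 fell in Ttpa-/- deficient against WT normal cerebrum (by 0.59; background 4.75%) and Lyplal1 fell with the deficient diet in the cerebellum (by 0.72; background 1.28%). Acsl3 and Lpgat1 were the 2 of 18 whose Ttpa-/- deficient change differed between the regions (-0.78 and -0.60, cerebrum minus cerebellum; background 3.38%). Between the regions 2 of 18 were higher and 5 lower in the young cerebellum, near the 38.4% of all tested probes that passed, among them the acyl-CoA synthetases Acsl5 (-2.76) and Acsl4 (-1.16) and the lysophospholipid acyltransferases Lpcat2 (-1.65) and Mboat7 (-1.31). In the aged cerebellum 0 of 18 were higher and 4 lower, against 33.6% of all tested probes, Acsl5 (-2.27), Enpp2 (-1.62), Mboat7 (-1.19) and Acsl4 (-1.16).

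Of 19 further genes of the phospholipase A2 superfamily and its receptor, 12 were not above background on all 40 arrays, and Pla2g2a, Pla2g2e, Pla2g10, Pla2g4c and the receptor Pla2r1 were above background on none. Pafah2 was lower in the young cerebellum (by 0.64; 1 of 8 tested, background 38.4%) and Pla2g2c in the aged cerebellum (by 0.94; 1 of 9 tested, background 33.6%), and no other gene of this list passed in any comparison. Of 19 receptors for the lipid products on the array, 7 to 13 were tested, depending on the comparison. The lysophosphatidic acid receptor Lpar2 was higher in Ttpa-/- deficient than in WT normal cerebellum (1.08, 1 of 9 tested, background 4.46%) and than in WT deficient cerebellum (1.27), where Lpar4 was lower (-1.03; 2 of 8 tested, background 4.94%). Between the regions 3 of 8 tested receptors were lower in the young cerebellum, Ptger3 (-3.86), Lpar5 (-1.02) and Lpar4 (-0.93), and 4 of 10 in the aged cerebellum, Ptger3 (at least 7.97-fold lower), Lpar4 (-0.96), Cysltr1 (-0.89) and Tbxa2r (-0.75), shares near the 38.4% and 33.6% of all tested probes. In all other comparisons 0 receptors passed. Ide, the insulin-degrading enzyme and no phospholipase, fell in Ttpa-/- deficient against WT normal cerebrum by 0.66 (adjusted p = 0.0266 by limma) and passed in no other comparison. Against the same WT normal cerebrum it was also lower, without passing, in WT deficient (-0.58) and Ttpa-/- supplemented mice (-0.57). Ttpa-/- against WT on the deficient diet gave -0.08 in the cerebrum. In the cerebellum Ttpa-/- deficient, WT deficient and Ttpa-/- supplemented against WT normal gave -0.48, -0.56 and -0.47. The aged WT normal cerebrum arrays ran from 0.60 to 1.63, those of Ttpa-/- deficient cerebrum from 0.49 to 0.55.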

How the data were processed

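Total RNA was hybridised in 1 colour (Cy3) to Agilent arrays, 4 per group. The deposited intensity per spot is the processed, background-subtracted signal of Feature Extraction, version 10.7.3.1 per the file headers and 10.1.1.1 in the submitters' processing notes. The authors also deposited a log2 table, which equalled the 75th-percentile-scaled values centred per probe (median absolute difference 0.00085), so its levels are relative to each probe's mean.

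Of 62976 spots, 59305 measured genes. Outlier-flagged spots (95 to 148 per array) were left out, repeated spots averaged as log2, and the array's 75th percentile subtracted. Of 55681 probes, 92 without an unflagged spot on some array were dropped. Probes above background on all 4 arrays of a compared group were tested with limma 3.58.1 (R 4.3.3), all 40 arrays in 1 fit with a coefficient per group, and Benjamini-Hochberg adjustment over all tested probes; the code was tested on simulated data. A change passed at an adjusted p under 0.05 and a fold above 1.5. Same-numbered arrays correlated above 0.1 in all 4 pairs for supplementation in the cerebrum and between the regions of Ttpa-/- deficient mice, a pairing seen in the data and not given by the labels. Fold bounds set a probe below background to the lowest detected signal. Values are limited by 4 arrays per group.

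The members and gene lists were chosen with earlier results of these data known. The text names every member, Ttpa, Ide and at most 4 genes of each list and comparison with the largest changes among those that passed. It also names the further phospholipase A2 superfamily genes and receptor above background on no array, and the 5 probes most like Pla2g3 per region. Sequences and mm9 positions come from the deposited files. Alternatives were median scaling, quantile normalization, normexp, the deposited log2 values, no filter on dim probes, flagged spots kept, array weights, the compared groups alone, other thresholds, the methods' t-test, the mean of all probes of a gene, a replicate block and leaving out each array. Regional differences of the diet, knockout and supplementation changes were added after the values were seen.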

Additional observations from a re-analysis of the deposited data

Results flagged for a closer look

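Of 100 combinations of a gene and a group of 4 arrays, 8 had 1 array far from the other 3, against about 5% by chance. Pla2g3 in aged WT cerebrum on the normal diet had array 4 at -0.80, with the others between -1.61 and -1.57. Pla2g2d in young WT cerebrum had array 4 at -2.82 (others -3.21 to -3.17). Pla2g4a in Ttpa-/- deficient cerebrum had array 4 at -1.24 (others -1.84 to -1.76), and Pla2g6 in Ttpa-/- supplemented cerebrum had array 3 at 0.0377 (others 0.28 to 0.32). Pla2g7 stood apart on array 4 in 3 cerebrum groups, at 3.87 in aged WT normal (others 4.08 to 4.11), 4.09 in WT deficient (others 3.71 to 3.75) and 4.08 in Ttpa-/- supplemented (others 3.82 to 3.85). Pla2g12a in aged WT cerebellum had array 3 at 0.187 (others 0.31 to 0.33).

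The tests of a difference between the regions gave -1.34 for Pla2g5 with ageing and 0.54 for Pla2g6 in Ttpa-/- deficient against WT normal mice, both cerebrum minus cerebellum and both with an adjusted p under 0.05 by limma. The first rested on single arrays, as given with its values, and the second was under the fold threshold. What set these arrays and differences apart was not tested.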

How the results depend on the processing

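No value that passed changed its direction under any alternative. The deposited log2 values, no filter on dim probes, flagged spots kept and the replicate block changed none of the 170 tests of members and none of the 17 counts; with the block on array number, supplementation in the cerebrum had 0 members that passed and Pla2g4e there was 0.65 (adjusted p = 0.0861 by limma). In the other comparisons 0 to 3 of the 4 same-numbered pairs correlated above 0.1. Between the regions all 4 pairs of Ttpa-/- deficient arrays did (0.138 to 0.481, each best with its own number). Own number was also the best match for 3 of 4 arrays in WT deficient (up to 0.412) and in Ttpa-/- supplemented mice (up to 0.35). In aged and young WT normal mice it was so for 2 and 1 of 4. With the block the regional difference in Ttpa-/- deficient mice kept its count of 0. The block gave each array number 1 shift shared by all 10 groups. It did not model pairs within a comparison, so neither count decides what such a pairing would change. Slide as a block could not be fitted, since each group lay on 1 slide. Median scaling moved the median of all probes by -0.18 with the deficient diet in the cerebellum, 0.18 for Ttpa-/- on that diet in the cerebellum, -0.11 for supplementation in the cerebrum and -0.12 for Ttpa-/- supplemented against WT deficient.

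Counts of members that passed moved as follows. Ttpa-/- against WT on the deficient diet in the cerebellum went from 2 to 1 with median scaling, quantile normalization, normexp, the unadjusted t-test or the mean of all probes. It went to 0 with the compared groups alone or the t-test after Benjamini-Hochberg, as did the diet and supplementation counts of the cerebellum. The regional difference in ageing went to 0 with median scaling (Pla2g5 -1.32, adjusted p = 0.0861) or the compared groups alone (adjusted p = 0.0628). Array weights gave 1 for ageing in each region, for the diet in the cerebrum (Pla2g3 1.35, adjusted p = 0.0049) and for the regional difference in Ttpa-/- deficient mice, 2 for the diet in the cerebellum and 4 in place of 3 between young regions (Pla2g5). An unadjusted p with the fold gave 1 for ageing in each region, the diet in the cerebrum and supplementation in the cerebrum, and 2 for the diet in the cerebellum. An adjusted p alone gave 1 for ageing in the cerebellum, where 11% of all tested probes passed that way. It gave 1 for Ttpa-/- deficient against WT normal in the cerebrum (19%) and the cerebellum (13.2%) and for their difference (7.04%). Ttpa-/- supplemented against WT normal in the cerebellum had 2 (14.7%), and Ttpa-/- on the deficient diet there 3 in place of 2 (Pla2g16, 12.8%). Between the regions it gave 5 in young (62.5%) and 6 in aged mice (56.4%). Under the other alternatives the share of all tested probes was not counted. The methods' t-test without adjustment gave 2 for ageing in the cerebrum and 1 for ageing in the cerebellum, Ttpa-/- deficient against WT normal in the cerebrum, supplementation in the cerebrum and Ttpa-/- supplemented against WT normal in the cerebrum. The mean of all probes gave 1 for ageing in the cerebellum and 5 between young regions. Leaving out 1 array gave 0 to 1 for ageing in each region, the diet in the cerebrum and both regional differences, 0 to 2 for the diet and 1 to 3 for Ttpa-/- on the deficient diet in the cerebellum, 3 to 4 between young and 2 to 3 between aged regions. The causes were not tested.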
